A study of Mus musculus with 9 samples.

Results

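The genes of the replication fork, of replication origins and of nucleotide synthesis were followed in HC11 cells, a mouse mammary epithelial cell line, that overexpress different forms of the transcriptional co-activator Mkl1. The members were 48 genes listed by symbol, chosen with earlier results of these data known, and a member was measured by the probeset annotated to that gene alone with the highest mean over all arrays. All 48 were found among the 19937 genes with a probeset of their own, and all 48 reached the expression minimum, a mean log2 value of 4, as did 13157 of the 19937 genes. HC11-ΔSAP cells carry Mkl1 without its SAP domain, a putative DNA-binding motif. HC11-mutB1 cells carry Mkl1 with alanine substitutions in the B1 region, through which Mkl1 binds serum response factor (SRF). HC11-FL cells carry full-length Mkl1 and served as the control. In each case the construct is tagged with red fluorescent protein, was introduced by stable transfection under Geneticin selection and is expressed on top of the endogenous Mkl1 of the cells. Each strain is a single population sorted by flow cytometry, and a strain with an empty vector was not analysed here. RNA was taken after 48 h in RPMI medium with 0.03% FCS, which holds almost no serum growth factors, from 3 samples of each strain, and each was hybridised to its own Affymetrix Mouse Gene 1.0 ST array. The labels call these samples triplicates and do not say whether they are separate cultures, so the p-values measure the spread between 3 samples of 1 sorted population.

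Before a cell divides, the origin recognition complex (ORC) marks the sites where DNA synthesis can start, and Cdc6 and Cdt1 load the replicative helicase there. In S phase Mcm10 and Cdc45 help to activate the helicase, polymerase alpha with primase lays down primers, the clamp loader places the sliding clamp Pcna on the primed DNA, and polymerases epsilon and delta extend the leading and the lagging strand. Many of these genes are known targets of E2F factors, which are held in check in resting cells and released when cells enter the cycle.

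The 9 arrays resembled each other closely, with Pearson's r across probesets of 0.994 to 0.995 between arrays of a strain and 0.985 to 0.989 between strains. Array medians lay between 4.53 and 4.60. All values below are log2 expression values unless stated otherwise, and fold changes are HC11-ΔSAP or HC11-mutB1 over HC11-FL, or HC11-ΔSAP over HC11-mutB1. Mkl1 itself (Mrtfa in the array's annotation) measured 9.41 to 9.55 in HC11-ΔSAP cells, 9.76 to 9.89 in HC11-mutB1 cells and 9.86 to 10.08 in HC11-FL cells. The array reads endogenous and introduced Mkl1 together. All 8 markers of mammary epithelium on a list were expressed in the strains. The endothelial genes Pecam1, Cdh5, Kdr and Tek and the immune genes Ptprc and Itgam stayed under the minimum, and 1 of 5 endothelial, 3 of 5 immune and 6 of 7 fibroblast markers reached it. Some of these markers differed between the strains, and not in 1 direction. By the test used throughout, HC11-ΔSAP against HC11-FL cells gave 4 lower and 3 higher calls (Epcam, Cdh1 and Trp63) among the 8 epithelial markers. Among the fibroblast markers, Pdgfra and Pdgfrb were lower and Dcn was higher. Over all genes tested, 12% were called lower and 16% higher in this comparison. The immune marker Cd68 averaged 8.14 in HC11-ΔSAP, 7.35 in HC11-mutB1 and 7.69 in HC11-FL cells. Krt5, a basal keratin, averaged 7.59 in HC11-ΔSAP, 10.64 in HC11-mutB1 and 9.49 in HC11-FL cells, Krt18, a luminal keratin, averaged 8.08 in HC11-ΔSAP, 8.78 in HC11-mutB1 and 9.44 in HC11-FL cells, and the fibroblast gene Dcn averaged 6.82 in HC11-ΔSAP, 4.52 in HC11-mutB1 and 5.01 in HC11-FL cells. The log2 of the summed level of the 8 epithelial markers was 12.72 to 12.74 in HC11-ΔSAP, 13.13 to 13.17 in HC11-mutB1 and 12.85 to 12.90 in HC11-FL cells, and that of the fibroblast markers was 8.85 to 8.88 in HC11-ΔSAP, 8.62 to 8.74 in HC11-mutB1 and 8.84 to 8.91 in HC11-FL cells. Their part in the results was not tested.

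The upstream sequences of the members were examined for the letters that E2F factors and their partners are known to bind, because E2F is the best known regulator of S phase genes. RefSeq promoters were at hand for 43 of the 48 members (mouse genome build GRCm38.p6), and the 250 bases before the start site were searched on both strands. Pole, Gmnn, Rfc2, Prim2 and Rnaseh2b were not matched. An E2F-type match, meaning any of TTTCCCGC, TTTCGCGC, TTTGCCGC and TTTGGCGC, occurred in 9 of the 43 members (20.9%), in 3.8% of the 10450 genes tested that have a promoter entry, and in 1.86% of all 32851 promoters. The CCAAT box occurred in 51.2% of the members and in 39.7% of the genes tested. The Sp1-type GGGCGG occurred in 69.8% of the members and in 62.5% of the genes tested, and the cell cycle homology region TTTGAA (CHR) in 14% of the members and in 12.3% of the genes tested. Over all promoters the shares were 33.8% for CCAAT, 32.7% for GGGCGG and 16% for TTTGAA. A match is a string of letters and not a proven site, and more than 1 promoter was searched for 18.6% of the members and for 19.6% of the genes tested.

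The 9 members with an E2F-type match are printed here, each with 11 bases on either side where the window allows, written 5′ to 3′ on the gene's strand with the match in capitals. They are printed because of the 4 motifs the E2F-type letters differed most in their share between the members and the genes tested, a choice made after these shares were seen. Genes whose match lies on the other strand read GCGGGAAA, GCGCGAAA or GCGCCAAA.
Orc1: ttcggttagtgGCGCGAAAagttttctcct
Orc3: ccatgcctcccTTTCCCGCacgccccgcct
Cdc6: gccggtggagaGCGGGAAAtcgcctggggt
Rfc3: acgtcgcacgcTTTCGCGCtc
Pola1: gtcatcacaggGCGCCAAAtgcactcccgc
Pole4: ctctacccggcGCGGGAAAggggccgaaat
Dnmt1: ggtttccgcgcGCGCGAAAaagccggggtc
Uhrf1: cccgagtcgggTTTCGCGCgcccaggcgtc
Hells: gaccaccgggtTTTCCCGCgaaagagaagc
The windows lie on GRCm38.p6 at chr4:108579416-108579445 (Orc1, plus strand), chr4:34614965-34614994 (Orc3, minus), chr11:98908002-98908031 (Cdc6, plus), chr5:151651209-151651229 (Rfc3, minus), chrX:93632275-93632304 (Pola1, minus), chr6:82652890-82652919 (Pole4, minus), chr9:20952824-20952853 (Dnmt1, minus), chr17:56304117-56304146 (Uhrf1, plus) and chr19:38930917-38930946 (Hells, plus), each upstream of an annotated start site of its gene. The match lay 27 bases before the start site in Orc1, 41 in Orc3, 138 in Cdc6 and in Pola1, 10 in Rfc3, 219 in Dnmt1, 185 in Uhrf1 and 62 in Hells, counted to its 5′ base on the gene's strand. In Pole4 it lay 34 or 43 bases before the start site, since 2 overlapping promoter entries cover it. Among the members that were lower in HC11-ΔSAP cells than in HC11-FL, by the test used throughout, 6 of 25 promoters (24%) held an E2F-type match, against 3 of 18 (16.7%) among the other members. The 3 were Orc3, Rfc3 and Pole4, so the letters were present in members that fell and in members that did not. CCAAT matched in 52% of the lower members and 50% of the others, and GGGCGG in 60% and 83.3%.

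The promoters of the 4 members with a RefSeq entry and the largest fold change between HC11-ΔSAP and HC11-FL cells follow, as examples of what lies upstream of the genes that changed most. They span chr9:65890073-65890322 on the plus strand for Pclaf, chr12:24708004-24708253 on the plus strand for Rrm2, chr19:38930740-38930989 on the plus strand for Hells and chr2:5012792-5013041 on the minus strand for Mcm10. The last base printed is the base next to the start site, and capitals mark E2F-type letters, CCAAT and TTTGAA on either strand.
Pclaf: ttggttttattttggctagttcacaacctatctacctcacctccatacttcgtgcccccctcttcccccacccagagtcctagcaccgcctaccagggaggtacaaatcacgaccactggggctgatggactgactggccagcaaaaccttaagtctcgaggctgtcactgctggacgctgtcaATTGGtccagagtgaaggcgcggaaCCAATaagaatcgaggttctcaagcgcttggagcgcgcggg
Rrm2: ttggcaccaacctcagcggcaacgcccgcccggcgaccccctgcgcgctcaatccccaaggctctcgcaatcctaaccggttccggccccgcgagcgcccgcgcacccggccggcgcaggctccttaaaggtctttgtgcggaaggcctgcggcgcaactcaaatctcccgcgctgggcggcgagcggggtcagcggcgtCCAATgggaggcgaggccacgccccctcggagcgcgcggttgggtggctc
Hells: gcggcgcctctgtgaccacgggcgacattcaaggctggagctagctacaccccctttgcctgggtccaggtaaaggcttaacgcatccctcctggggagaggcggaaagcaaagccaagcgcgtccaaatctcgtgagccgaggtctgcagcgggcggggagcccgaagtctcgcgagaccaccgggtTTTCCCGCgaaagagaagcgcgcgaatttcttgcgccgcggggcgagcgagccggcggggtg
Mcm10: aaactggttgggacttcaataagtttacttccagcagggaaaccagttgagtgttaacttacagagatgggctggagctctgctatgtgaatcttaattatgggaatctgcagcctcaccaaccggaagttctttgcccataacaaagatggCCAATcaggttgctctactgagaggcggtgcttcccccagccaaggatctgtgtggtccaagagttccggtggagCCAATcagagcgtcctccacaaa
Pclaf and Mcm10 each held 2 CCAAT matches and no E2F-type match, and Rrm2 held 1 CCAAT match, 50 bases before the start site. Hells held the only E2F-type match of the 4, and no TTTGAA occurred in any of them. In these 250 bases these 4 genes did not share an E2F-type string, and nothing follows from that about the factors that bind there.

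Transcript levels of the members were lowest in HC11-ΔSAP cells. The median over the 48 members was 6.85, 6.86 and 6.95 on the HC11-ΔSAP arrays, 7.80, 7.90 and 7.76 on the HC11-mutB1 arrays and 7.63, 7.52 and 7.63 on the HC11-FL arrays, so the arrays of the 3 strains did not overlap. Within a strain the SD of a member had a median of 0.09 in HC11-ΔSAP, 0.08 in HC11-mutB1 and 0.06 in HC11-FL cells. Differences were tested with limma across all 34760 probesets, and a gene is called lower or higher where its adjusted p is 0.01 or less and its mean log2 value is 4 or more. Where a gene also changed at least 2-fold, it is said to pass all 3 filters.

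**Figure D1:**
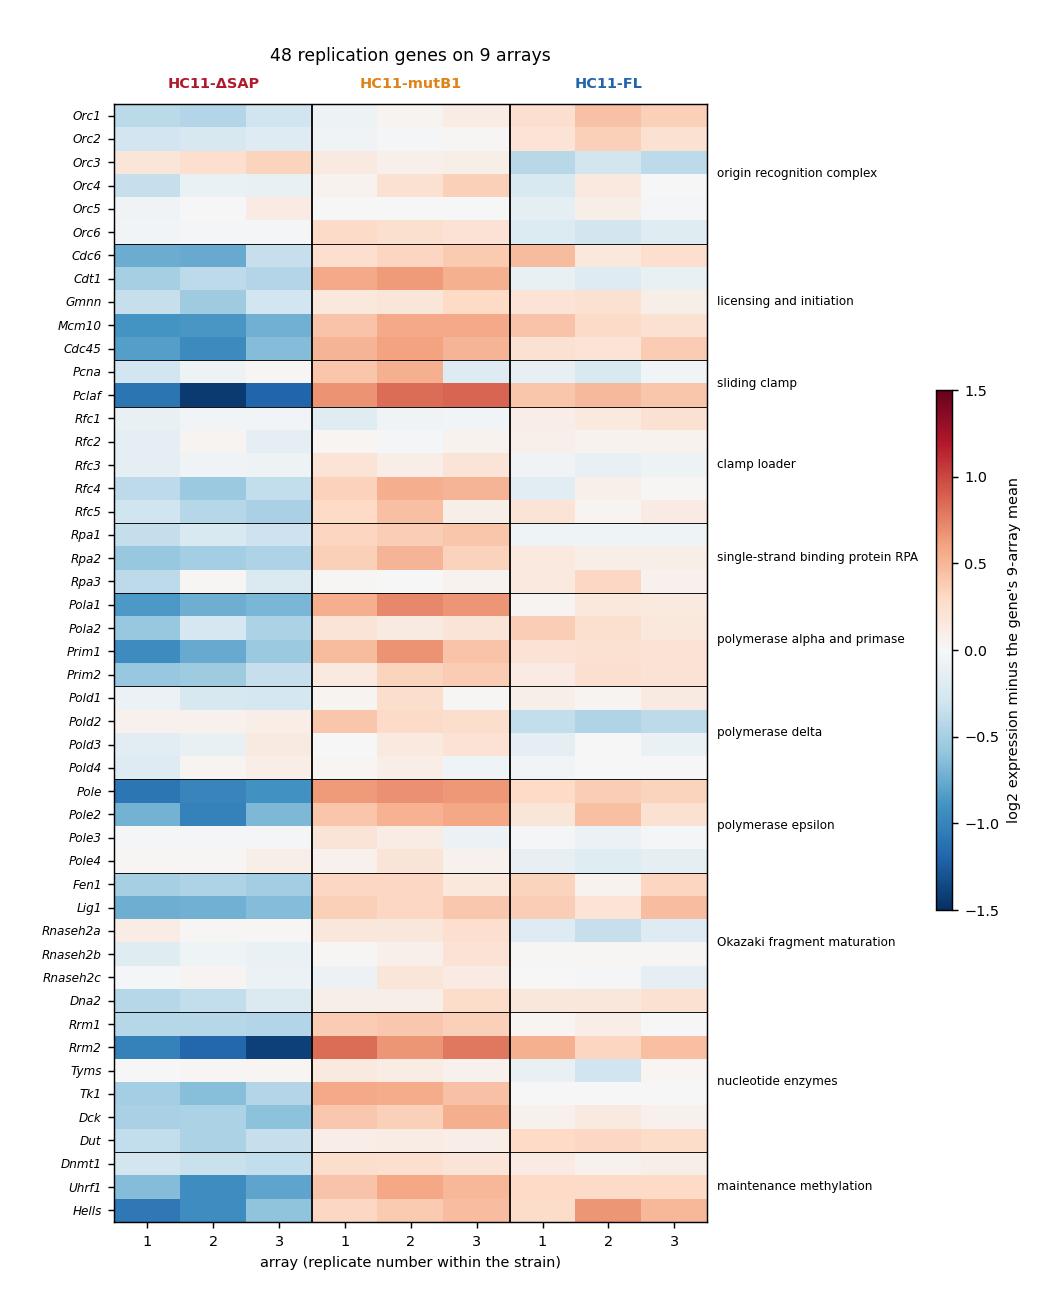
Log2 expression of the 48 members (rows, by functional group) on the 9 arrays (columns, by strain), as the difference from each gene's mean over the 9 arrays (colour, log2 units). The HC11-ΔSAP columns are blue for most rows, deepest for Pclaf and Rrm2, whereas Orc3 is lowest in the HC11-FL columns.

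Between HC11-ΔSAP and HC11-FL cells, 28 of the 48 members were lower and 3 were higher. Over all genes tested, 12% were called lower and 16% higher. With the fold minimum, 9 members were lower and none was higher, while 2.07% of all genes tested were lower and 2.06% higher by these filters. The median log2 fold change of the members was -0.49, against 0.00 over all genes tested, and single members ranged from -1.68 to 0.61. Between HC11-mutB1 and HC11-FL cells, 14 members were higher and 1 was lower, where 15.7% of all genes tested were called higher and 10.6% lower. No member changed at least 2-fold here, as 2.21% of all genes tested did upwards and 1.67% downwards. The median of the members was 0.21, against -0.01 over all genes tested, and the range was -0.32 to 0.73. These 2 comparisons share the 3 HC11-FL arrays and are therefore not independent of each other. The direct comparison of HC11-ΔSAP with HC11-mutB1 cells tests the difference between them. There 30 members were lower and none was higher, where 10.6% of all genes tested were called lower and 9.86% higher. Of the 30 members, 13 were at least 2-fold lower, as were 2.28% of all genes tested, and 1.61% were at least 2-fold higher. The median of the members was -0.58, against 0.02 over all genes tested.

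**Figure D2:**
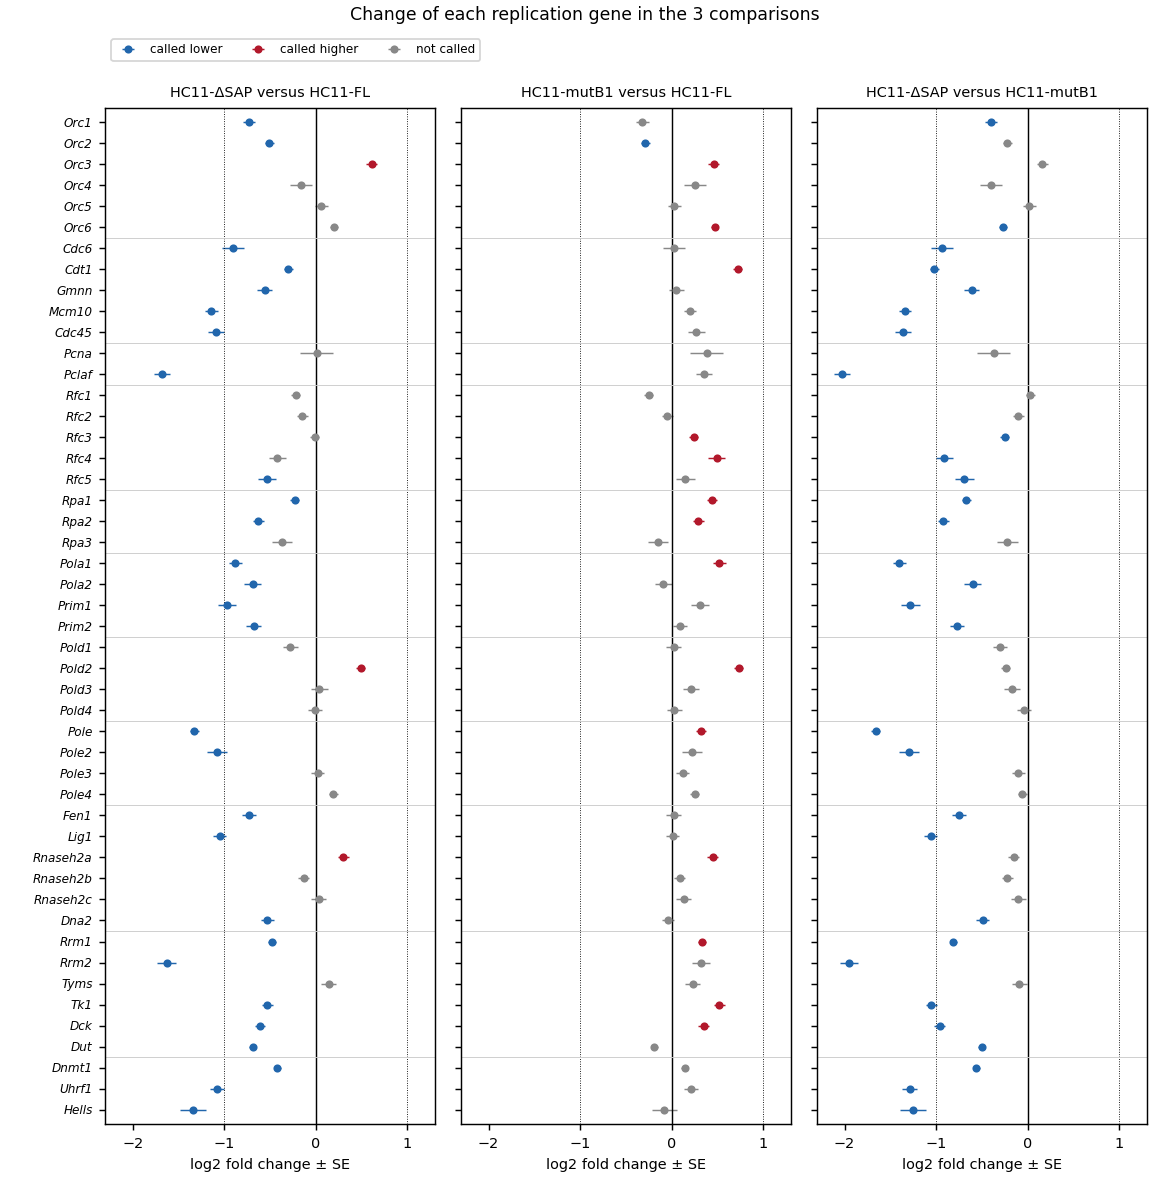
Log2 fold change of each member (points) with its standard error (bars) in the 3 comparisons, with rows in the same order as in the map of all arrays, lines between functional groups and dotted lines at 2-fold. Most points of the left and right panels lie left of 0, as far as -1.68 and -2.03 for Pclaf, and most points of the middle panel lie between 0 and 0.73. Colours mark genes called lower (blue), called higher (red) and not called (grey).

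Genes that mark cycling cells, but do not belong to the replication machinery, were like most members lowest in HC11-ΔSAP cells. All 9 measured genes of such a list (Mki67, Top2a, Ccnb2, Cdk1, Plk1, Aurka, Aurkb, Bub1 and Cenpe) were lower in HC11-ΔSAP cells than in HC11-FL, with a median log2 fold change of -1.35, and 8 of the 9 were higher in HC11-mutB1 cells than in HC11-FL, with a median of 0.71. Of all genes tested, 12% were called lower in the former comparison and 15.7% higher in the latter. Fewer of the members rose in the latter, 14 of 48, with a median of 0.21. The log2 of the summed level of the 9 cycling genes was 9.60 to 9.85 on the HC11-ΔSAP arrays, 11.71 to 11.80 on the HC11-mutB1 arrays and 11.14 to 11.16 on the HC11-FL arrays. Mki67, the gene of the Ki-67 proliferation antigen, averaged 6.07 in HC11-ΔSAP, 8.54 in HC11-mutB1 and 7.55 in HC11-FL cells. Their part in the changes of the members was not tested. RNA was taken from whole cultures, where fewer cells in S phase and less RNA per cell cannot be told apart. Of 8 measured genes linked to quiescence or the inhibition of cyclin-dependent kinases, HC11-ΔSAP against HC11-FL cells gave 3 higher and 2 lower calls. These are 37.5% and 25%, where 16% of all genes tested were called higher and 12% lower. The higher ones were Rbl2, Gas1 and Gas6, and the lower ones were Cdkn1b and Cdkn2b. HC11-mutB1 against HC11-FL cells gave 1 higher and 3 lower calls. These are 12.5% and 37.5%, where 15.7% of all genes tested were called higher and 10.6% lower. The 3 lower ones in HC11-mutB1 cells were the kinase inhibitors Cdkn2b (log2 fold change -0.59) and Cdkn2c (-1.02) and the growth arrest gene Gas6 (-0.57), and the higher one was Gas1. Gas1, a growth arrest gene, averaged 10.29 in HC11-ΔSAP, 9.46 in HC11-mutB1 and 8.04 in HC11-FL cells. Gas6 averaged 8.88 in HC11-ΔSAP, 6.50 in HC11-mutB1 and 7.06 in HC11-FL cells.

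The subunits of the origin recognition complex did not change as a unit. Orc1 and Orc2 were lower in HC11-ΔSAP cells than in HC11-FL, Orc3 was higher, and Orc4, Orc5 and Orc6 were not called. Orc1, the subunit whose level is known to vary over the cell cycle, measured 3.84, 3.81 and 3.95 in HC11-ΔSAP, 4.17, 4.29 and 4.36 in HC11-mutB1 and 4.50, 4.68 and 4.60 in HC11-FL cells. Its log2 fold change between HC11-ΔSAP and HC11-FL cells was -0.73 ± 0.07 (SE, adjusted p = 0.0002), and the 3 strains formed 3 separate levels. HC11-ΔSAP cells averaged 3.87 for Orc1, the only strain mean of a member below the expression minimum, and the change in Orc1 was thus measured close to background. Orc2 measured 8.12, 8.17 and 8.22 in HC11-ΔSAP, 8.36, 8.38 and 8.43 in HC11-mutB1 and 8.62, 8.77 and 8.64 in HC11-FL cells. It was the only member called lower in HC11-mutB1 cells than in HC11-FL (log2 fold change -0.29 ± 0.05, adjusted p = 0.0069), and this call was lost when any of the 9 arrays was left out, with an adjusted p of 0.01 to 0.029. Orc3 ran the other way, with 8.37, 8.45 and 8.53 in HC11-ΔSAP, 8.33, 8.27 and 8.28 in HC11-mutB1 and 7.78, 7.92 and 7.80 in HC11-FL cells. It exceeded its HC11-FL level 1.53-fold in HC11-ΔSAP (adjusted p = 0.00017) and 1.37-fold in HC11-mutB1 cells (adjusted p = 0.0009). Between HC11-ΔSAP and HC11-mutB1 cells it was not called (adjusted p = 0.13). Orc6 measured 7.79, 7.81 and 7.81 in HC11-ΔSAP, 8.11, 8.07 and 8.04 in HC11-mutB1 and 7.62, 7.55 and 7.64 in HC11-FL cells. It was highest in HC11-mutB1 cells, by 0.47 ± 0.04 log2 units over HC11-FL cells (adjusted p = 0.00013). Orc4 and Orc5 were called in no comparison.

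All 5 genes of licensing and of helicase activation were lower in HC11-ΔSAP cells than in HC11-FL, and all 5 were lower in HC11-ΔSAP cells than in HC11-mutB1. Mcm10, which joins the helicase as it is activated, measured 5.02, 5.04 and 5.20 in HC11-ΔSAP, 6.34, 6.48 and 6.48 in HC11-mutB1 and 6.34, 6.20 and 6.15 in HC11-FL cells. Cdc45, the helicase cofactor of the CMG complex, measured 5.79, 5.66 and 5.97 in HC11-ΔSAP, 7.13, 7.22 and 7.13 in HC11-mutB1 and 6.85, 6.82 and 7.00 in HC11-FL cells. Both fell by over 2-fold in HC11-ΔSAP against HC11-FL cells, Mcm10 by 2.21-fold (adjusted p = 2.2e-05) and Cdc45 by 2.12-fold (adjusted p = 6.1e-05). In HC11-mutB1 cells neither was called against HC11-FL, with adjusted p = 0.11 and 0.067. Cdt1, which loads the helicase together with Cdc6, had another profile. It measured 8.02, 8.12 and 8.07 in HC11-ΔSAP, 9.08, 9.15 and 9.05 in HC11-mutB1 and 8.40, 8.32 and 8.40 in HC11-FL cells. HC11-mutB1 cells stood apart here, 1.65-fold above HC11-FL cells (adjusted p = 2.8e-05), while HC11-ΔSAP cells were 1.23-fold below them (adjusted p = 0.0027). Gmnn, whose protein geminin inhibits Cdt1, averaged 4.28 in HC11-ΔSAP, 4.89 in HC11-mutB1 and 4.84 in HC11-FL cells, and was 1.47-fold lower in HC11-ΔSAP cells than in HC11-FL (adjusted p = 0.0013). This change was measured close to the expression minimum. Cdc6 averaged 5.67 in HC11-ΔSAP, 6.60 in HC11-mutB1 and 6.58 in HC11-FL cells. Its 1.88-fold difference between HC11-ΔSAP and HC11-FL cells (adjusted p = 0.0011) had no counterpart between HC11-mutB1 and HC11-FL cells (log2 fold change 0.02 ± 0.12).

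Pcna, the sliding clamp, and Pclaf, the small clamp-associated protein p15(PAF) that binds it, differed from each other. Pclaf showed the largest change of all members. It measured 6.97, 6.63 and 6.87 in HC11-ΔSAP, 8.74, 8.90 and 8.93 in HC11-mutB1 and 8.48, 8.55 and 8.48 in HC11-FL cells. HC11-ΔSAP cells were 3.21-fold below HC11-FL cells (log2 fold change -1.68 ± 0.09, adjusted p = 9.2e-06) and 4.1-fold below HC11-mutB1 cells (adjusted p = 3.8e-06). The other probeset annotated to Pclaf gave the same direction and a 3.91-fold decrease between HC11-ΔSAP and HC11-FL cells (adjusted p = 2.9e-05), with 5.36, 5.08 and 5.58 in HC11-ΔSAP, 7.60, 7.65 and 7.94 in HC11-mutB1 and 7.37, 7.31 and 7.25 in HC11-FL cells. Pcna itself was not called between HC11-ΔSAP and HC11-FL cells on either of its probesets. On the brighter probeset it measured 10.68, 10.89 and 10.98 in HC11-ΔSAP, 11.38, 11.50 and 10.77 in HC11-mutB1 and 10.84, 10.74 and 10.93 in HC11-FL cells. HC11-mutB1 replicate 3 lay far below the other HC11-mutB1 arrays, and the log2 fold change of HC11-mutB1 over HC11-FL cells was 0.38 ± 0.18 with it (adjusted p = 0.22) and 0.60 without it (adjusted p = 0.0079). On the dimmer probeset that array did not stand apart, with 10.54, 10.60 and 10.56 in HC11-mutB1, against 9.96, 9.85 and 9.86 in HC11-FL cells, and the difference of 0.68 passed (adjusted p = 3.7e-05). HC11-ΔSAP cells measured 9.98, 9.92 and 10.01 on that probeset, 0.60 log2 units below HC11-mutB1 cells (adjusted p = 8.9e-05). Used probesets of members on 1 chromosome had neighbouring numbers, except those of Pcna, Pclaf and Tk1. That of Pcna (chromosome 2), 10461391, falls between Pold4 (10460392) and Hells (10462973) on chromosome 19. That of Pclaf (chromosome 9), 10350838, comes before Orc2 (10354845, chromosome 1). That of Tk1 (chromosome 11), 10582809, comes after Rnaseh2a (10580274, chromosome 8). Their dimmer probesets are numbered near members of their own chromosomes. Whether related sequences elsewhere in the genome, such as processed pseudogenes, contribute to the probesets of Pcna, Pclaf, Rpa3 or Tk1, which have 2 each, was not tested.

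The clamp loader, replication factor C, held few calls between HC11-ΔSAP and HC11-FL cells. Only Rfc5 of its 5 subunits was called there, lower by 1.45-fold (adjusted p = 0.0055), with 8.15, 8.03 and 7.97 in HC11-ΔSAP, 8.75, 8.91 and 8.54 in HC11-mutB1 and 8.66, 8.50 and 8.58 in HC11-FL cells. Rfc4 measured 7.87, 7.71 and 7.90 in HC11-ΔSAP, 8.61, 8.81 and 8.78 in HC11-mutB1 and 8.10, 8.34 and 8.29 in HC11-FL cells. It was 1.4-fold higher in HC11-mutB1 cells than in HC11-FL (adjusted p = 0.0053) and 1.87-fold lower in HC11-ΔSAP cells than in HC11-mutB1 (adjusted p = 0.00023). Rfc1, the large subunit, and Rfc2 were called in no comparison. Of the single-strand binding protein RPA, Rpa1 and Rpa2 lay below their HC11-FL level in HC11-ΔSAP and above it in HC11-mutB1 cells, and Rpa3 was not called. Rpa2 measured 6.82, 6.87 and 6.92 in HC11-ΔSAP, 7.74, 7.90 and 7.73 in HC11-mutB1 and 7.53, 7.49 and 7.47 in HC11-FL cells. Rpa1, the large DNA-binding subunit, measured 7.66, 7.79 and 7.71 in HC11-ΔSAP, 8.34, 8.39 and 8.43 in HC11-mutB1 and 7.95, 7.95 and 7.95 in HC11-FL cells. In both genes the 3 strains formed separate levels, and HC11-ΔSAP cells were below HC11-mutB1 cells by 1.89-fold for Rpa2 (adjusted p = 1.9e-05) and 1.59-fold for Rpa1 (adjusted p = 4.2e-05).

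The polymerases differed in how their subunits changed. All 4 subunits of polymerase alpha and primase, which make the primers, were lower in HC11-ΔSAP cells than in HC11-FL, by 1.6-fold to 1.96-fold, with a median log2 fold change of -0.79. Prim1, the catalytic primase subunit, measured 6.29, 6.48 and 6.68 in HC11-ΔSAP, 7.71, 7.90 and 7.66 in HC11-mutB1 and 7.45, 7.46 and 7.45 in HC11-FL cells. Pola1, the catalytic subunit of polymerase alpha, measured 6.28, 6.40 and 6.45 in HC11-ΔSAP, 7.68, 7.86 and 7.80 in HC11-mutB1 and 7.18, 7.30 and 7.29 in HC11-FL cells. Pola1 was 2.64-fold lower in HC11-ΔSAP cells than in HC11-mutB1 (adjusted p = 5.2e-06), and HC11-mutB1 cells exceeded HC11-FL cells 1.44-fold (adjusted p = 0.00098).

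In polymerase epsilon, the leading strand enzyme, the catalytic subunit Pole and its partner Pole2 fell, while the small histone-fold subunits Pole3 and Pole4 were not called. Pole measured 5.42, 5.51 and 5.59 in HC11-ΔSAP, 7.14, 7.19 and 7.15 in HC11-mutB1 and 6.80, 6.87 and 6.84 in HC11-FL cells. HC11-ΔSAP cells were 2.52-fold below HC11-FL cells for Pole (log2 fold change -1.33 ± 0.05, adjusted p = 1.4e-06) and 3.15-fold below HC11-mutB1 cells (adjusted p = 7.5e-07). Pole2 measured 4.37, 4.06 and 4.40 in HC11-ΔSAP, 5.49, 5.60 and 5.65 in HC11-mutB1 and 5.26, 5.53 and 5.30 in HC11-FL cells, 2.12-fold lower in HC11-ΔSAP cells than in HC11-FL (adjusted p = 0.00023). Its HC11-ΔSAP values lay close to the expression minimum. Pole3 averaged 7.64 in HC11-ΔSAP, 7.74 in HC11-mutB1 and 7.62 in HC11-FL cells, and Pole4 averaged 8.49 in HC11-ΔSAP, 8.55 in HC11-mutB1 and 8.30 in HC11-FL cells. Neither was called in any comparison. The HC11-ΔSAP arrays overlapped the HC11-FL arrays for Pole3, and lay above them for Pole4 (log2 fold change 0.19 ± 0.05, adjusted p = 0.042).

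Polymerase delta, which extends Okazaki fragments, held no member called lower in any comparison. Its subunit Pold2, which links the catalytic subunit to the accessory ones, was higher in both mutant strains than in HC11-FL cells. It measured 9.43, 9.43 and 9.46 in HC11-ΔSAP, 9.78, 9.65 and 9.62 in HC11-mutB1 and 8.99, 8.91 and 8.97 in HC11-FL cells. The difference was 1.4-fold for HC11-ΔSAP (adjusted p = 0.0003) and 1.66-fold for HC11-mutB1 cells (adjusted p = 3.7e-05), the largest rise of a member in HC11-mutB1 cells. Pold1, the catalytic subunit, averaged 6.53 in HC11-ΔSAP, 6.83 in HC11-mutB1 and 6.82 in HC11-FL cells (log2 fold change of HC11-ΔSAP over HC11-FL -0.28 ± 0.08, adjusted p = 0.04). Pold3 and Pold4 lay within 0.21 log2 units of HC11-FL cells in both mutant strains.

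**Figure D3:**
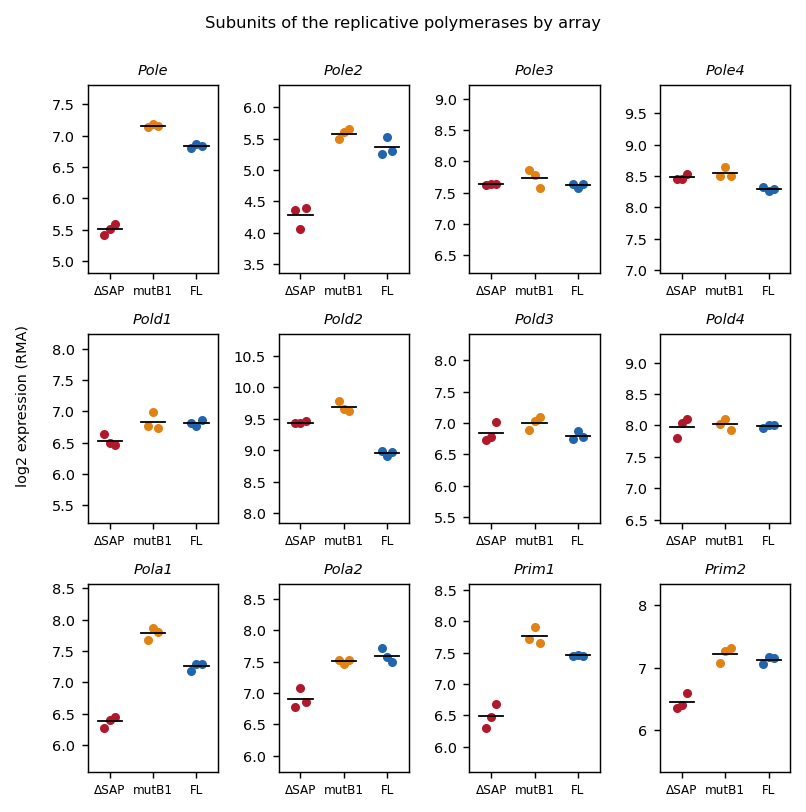
Log2 expression of the subunits of polymerase epsilon (top), delta (middle) and alpha with primase (bottom) on each array (points) with the strain mean (line), where each axis spans 3 log2 units at its own height. HC11-ΔSAP arrays lie lowest for Pole, Pole2 and the 4 genes of the bottom row, while Pold2 is lowest on the HC11-FL arrays (8.91 to 8.99).

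Of the 6 genes of Okazaki fragment maturation, the flap nucleases Fen1 and Dna2 and the ligase Lig1 were lower in HC11-ΔSAP cells than in HC11-FL. Lig1, which seals the fragments, measured 6.42, 6.43 and 6.50 in HC11-ΔSAP, 7.51, 7.47 and 7.56 in HC11-mutB1 and 7.53, 7.36 and 7.62 in HC11-FL cells. Its 2.07-fold decrease in HC11-ΔSAP cells (adjusted p = 2.5e-05) stood beside overlapping arrays of HC11-mutB1 and HC11-FL cells (log2 fold change 0.01 ± 0.07). Fen1 fell by 1.66-fold (adjusted p = 0.00045) and Dna2 by 1.44-fold (adjusted p = 0.0014) between HC11-ΔSAP and HC11-FL cells. Ribonuclease H2, which removes RNA from DNA, has 3 subunits, and none of them was called lower. Rnaseh2a, the catalytic subunit, measured 9.07, 8.97 and 8.98 in HC11-ΔSAP, 9.13, 9.13 and 9.21 in HC11-mutB1 and 8.76, 8.61 and 8.76 in HC11-FL cells. It exceeded its HC11-FL level 1.23-fold in HC11-ΔSAP (adjusted p = 0.0083) and 1.36-fold in HC11-mutB1 cells (adjusted p = 0.0011). Rnaseh2b and Rnaseh2c were not called.

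Of the 6 nucleotide enzymes, 5 were lower in HC11-ΔSAP cells than in HC11-FL. Rrm2, the S phase subunit of ribonucleotide reductase, measured 6.39, 6.23 and 6.00 in HC11-ΔSAP, 8.24, 8.06 and 8.19 in HC11-mutB1 and 7.94, 7.72 and 7.86 in HC11-FL cells. HC11-ΔSAP cells were 3.1-fold below HC11-FL cells for Rrm2 (log2 fold change -1.63 ± 0.10, adjusted p = 2.2e-05) and 3.87-fold below HC11-mutB1 cells (adjusted p = 9.4e-06). Rrm1, the large subunit of the same enzyme, averaged 9.15 in HC11-ΔSAP, 9.96 in HC11-mutB1 and 9.62 in HC11-FL cells, 1.39-fold below HC11-FL in HC11-ΔSAP (adjusted p = 0.00012) and 1.26-fold above HC11-FL in HC11-mutB1 cells (adjusted p = 0.00092). Tk1, the cytosolic thymidine kinase, measured 6.87, 6.74 and 6.94 in HC11-ΔSAP, 7.95, 7.93 and 7.82 in HC11-mutB1 and 7.38, 7.38 and 7.38 in HC11-FL cells. The HC11-FL arrays carry the identical value, so its SD of 0.00 there is no estimate of the spread. The other probeset of Tk1, with 6.49, 6.58 and 6.66 in HC11-ΔSAP, 7.37, 7.56 and 7.43 in HC11-mutB1 and 7.11, 6.90 and 6.95 in HC11-FL cells, gave calls in the same directions. Dck, a salvage kinase for deoxynucleosides, was 1.53-fold below HC11-FL in HC11-ΔSAP (adjusted p = 0.00023) and 1.27-fold above HC11-FL in HC11-mutB1 cells (adjusted p = 0.005). Dut, which removes dUTP, was 1.62-fold lower in HC11-ΔSAP cells than in HC11-FL (adjusted p = 2.2e-05) and was not called between HC11-mutB1 and HC11-FL cells (adjusted p = 0.02). Tyms, which makes thymidylate, was called in no comparison and averaged 7.56 in HC11-ΔSAP, 7.66 in HC11-mutB1 and 7.42 in HC11-FL cells.

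The 3 genes that carry DNA methylation onto the new strand were all lower in HC11-ΔSAP cells than in either other strain. Hells, a chromatin remodeler, measured 7.20, 7.34 and 7.67 in HC11-ΔSAP, 8.58, 8.66 and 8.73 in HC11-mutB1 and 8.54, 8.93 and 8.76 in HC11-FL cells. Uhrf1, which recognises hemimethylated DNA, measured 6.37, 6.08 and 6.23 in HC11-ΔSAP, 7.44, 7.59 and 7.51 in HC11-mutB1 and 7.31, 7.30 and 7.31 in HC11-FL cells. Hells fell by 2.53-fold (adjusted p = 0.00024) and Uhrf1 by 2.12-fold (adjusted p = 3.2e-05) between HC11-ΔSAP and HC11-FL cells. Dnmt1, the maintenance methyltransferase that Uhrf1 recruits, fell by 1.34-fold (adjusted p = 0.00031). No gene of this group was called between HC11-mutB1 and HC11-FL cells.

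**Figure D4:**
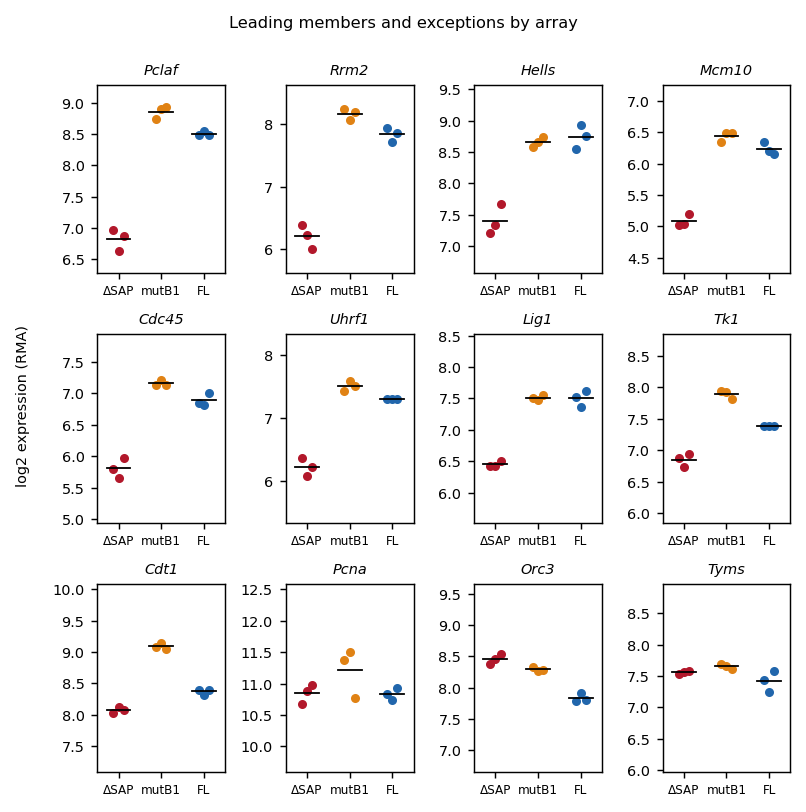
Log2 expression of the members with the largest changes and of members that differ from them, on each array (points) with the strain mean (line), where each axis spans 3 log2 units at its own height. Pclaf and Rrm2 lie lowest on the HC11-ΔSAP arrays (6.63 to 6.97 and 6.00 to 6.39), Cdt1 is highest in HC11-mutB1 cells (9.05 to 9.15), and 1 HC11-mutB1 array of Pcna lies apart at 10.77.

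The functional groups thus held different shares of called genes. In HC11-ΔSAP against HC11-FL cells, licensing (5 of 5), polymerase alpha and primase (4 of 4), maintenance methylation (3 of 3) and nucleotide enzymes (5 of 6) held most of the lower members, whereas polymerase delta (0 of 4), the clamp loader (1 of 5) and ORC (2 of 6) held few. The same groups led in HC11-ΔSAP against HC11-mutB1 cells, except that 3 of 5 clamp loader subunits were lower there. The higher members of HC11-mutB1 cells were spread over 9 of the 11 groups, at most 3 in any of them, and the sliding clamp and maintenance methylation held none. For the sliding clamp this depends on the brighter Pcna probeset, which passed only without HC11-mutB1 replicate 3 (0.60, adjusted p = 0.0079). The dimmer Pcna probeset was higher in HC11-mutB1 cells than in HC11-FL (0.68, adjusted p = 3.7e-05). These groups are small, and the differences between groups were not tested.

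**Figure D5:**
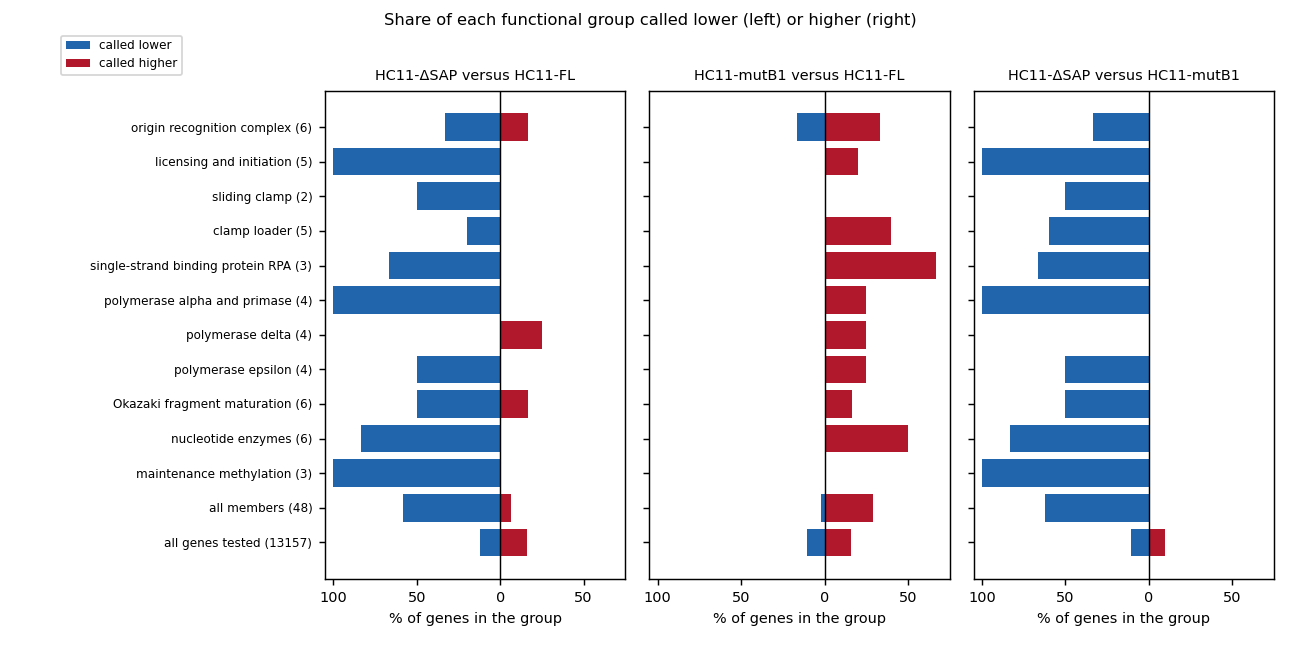
Share of each functional group (number of genes in parentheses) called lower (bars to the left) or higher (bars to the right) in the 3 comparisons, in percent of the genes in the group. Licensing, polymerase alpha with primase and maintenance methylation reach 100% lower in HC11-ΔSAP against HC11-FL cells, and polymerase delta 0%, beside 12% of all genes tested.

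Several calls rested on differences near the threshold and were lost when single arrays were left out. In HC11-ΔSAP against HC11-FL cells, Rpa1 (log2 fold change -0.23) and Rnaseh2a (0.30) lost theirs without any of the 9 arrays (adjusted p up to 0.034 and 0.031), Rfc5 without any array but HC11-mutB1 replicates 2 and 3 (up to 0.025), and Cdt1 without replicate 1 or 3 of HC11-ΔSAP or of HC11-FL (up to 0.014). In HC11-mutB1 against HC11-FL cells, Rpa2 (0.29) lost its call without any array (up to 0.032) and Rfc3 (0.24) without any but HC11-mutB1 replicate 2 (up to 0.034). Rfc4 lost its call without HC11-FL replicate 1 or 3, HC11-mutB1 replicate 2 or 3 or HC11-ΔSAP replicate 1 (up to 0.024), Pole without HC11-FL replicate 1 or 3 or any HC11-mutB1 array (up to 0.015), and Dck without any HC11-FL array or HC11-mutB1 replicate 1 or 3 (up to 0.022). The count of members higher in HC11-mutB1 cells than in HC11-FL was 9 without HC11-FL replicate 1 and 9 without HC11-FL replicate 3. In HC11-ΔSAP against HC11-mutB1 cells, Rfc3 (-0.25) lost its call without any array (up to 0.036), Orc1 (-0.40) without any HC11-ΔSAP array, HC11-mutB1 replicate 2 or 3 or HC11-FL replicate 3 (up to 0.029), and Orc6 (-0.27) without any HC11-ΔSAP array or HC11-mutB1 replicate 1 or 2 (up to 0.016). Pola2 lost its call without HC11-mutB1 replicate 1 or 3 or HC11-ΔSAP replicate 3, and Rfc5 without HC11-mutB1 replicate 1 or HC11-ΔSAP replicate 2 or 3 (up to 0.011 each), and Dna2 without HC11-ΔSAP replicate 1 or 2 (up to 0.015). Calls were gained for Pclaf in HC11-mutB1 against HC11-FL cells without HC11-ΔSAP replicate 2 (0.35, adjusted p = 0.0096), and in HC11-ΔSAP against HC11-FL cells for Rfc4 without HC11-FL replicate 1 (-0.49, adjusted p = 0.0068) and Rpa3 without HC11-ΔSAP replicate 2 (-0.48, adjusted p = 0.0092). In each of these fits the direction stayed the same, and every member that passed the 3 filters in a comparison kept its adjusted p at or under 0.01 in that comparison. In 10 of the 48 members, 2 or 3 arrays of a strain hold exactly the same value, in all 3 arrays for Orc5 in HC11-mutB1 cells and for Rnaseh2b and Tk1 in HC11-FL cells, so their errors may be too small.

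Of 65 further genes of the pathway on 6 lists, 62 were measured and 61 reached the expression minimum. Between HC11-ΔSAP and HC11-FL cells 27 of these genes were called lower and 5 higher, between HC11-mutB1 and HC11-FL cells 7 lower and 11 higher, and between HC11-ΔSAP and HC11-mutB1 cells 27 lower and 2 higher. For HC11-mutB1 against HC11-FL cells these are shares of 11.5% lower and 18% higher, near the 10.6% and 15.7% of all genes tested. The lower calls made up 44.3% in HC11-ΔSAP against HC11-FL cells, where 12% of all genes tested were called lower, and 44.3% in HC11-ΔSAP against HC11-mutB1 cells, where 10.6% were. Their median log2 fold changes were -0.27, 0.00 and -0.20 in these comparisons. The replicative helicase of Mcm2 to Mcm7 with the GINS subunits held 7 lower genes and 1 higher among 10 in HC11-ΔSAP against HC11-FL cells. Mcm6 measured 6.13, 6.11 and 6.34 in HC11-ΔSAP, 8.09, 8.08 and 8.02 in HC11-mutB1 and 8.39, 8.27 and 8.35 in HC11-FL cells, 4.42-fold lower in HC11-ΔSAP cells than in HC11-FL (adjusted p = 6.2e-07). Mcm5 measured 6.61, 6.59 and 6.59 in HC11-ΔSAP, 8.34, 8.40 and 8.33 in HC11-mutB1 and 7.89, 7.76 and 7.85 in HC11-FL cells, and HC11-ΔSAP cells were 3.39-fold below HC11-mutB1 cells (adjusted p = 3.6e-07). Gins3, a GINS subunit, was the 1 gene of this list called higher in HC11-ΔSAP against HC11-FL cells, with 7.41, 7.34 and 7.35 in HC11-ΔSAP, 8.03, 7.96 and 7.91 in HC11-mutB1 and 6.50, 6.78 and 6.81 in HC11-FL cells. Gins3 exceeded its HC11-FL level 1.59-fold in HC11-ΔSAP (adjusted p = 0.00067) and 2.41-fold in HC11-mutB1 cells (adjusted p = 2.3e-05), and HC11-ΔSAP cells were 1.51-fold below HC11-mutB1 cells (adjusted p = 0.0017). Among the genes that protect the fork, Timeless, a partner of Tipin, measured 5.26, 4.58 and 4.87 in HC11-ΔSAP, 5.95, 5.95 and 5.95 in HC11-mutB1 and 6.62, 6.35 and 6.58 in HC11-FL cells, 3.07-fold lower in HC11-ΔSAP cells than in HC11-FL (adjusted p = 0.00018). Its HC11-mutB1 values are the same as printed, so its error may be too small. In this group of fork genes 5 of 7 were lower in HC11-ΔSAP cells than in HC11-FL, as were 4 of 8 origin firing factors and 4 of 8 histone chaperones of the fork.

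Other enzymes of nucleotide metabolism, which make or break down nucleotides along further routes, were compared in the same way. Of 13 other deoxynucleotide enzymes, 1 was lower and 2 were higher in HC11-ΔSAP cells than in HC11-FL, and none was called between HC11-ΔSAP and HC11-mutB1 cells. The shares of 7.69% lower and 15.4% higher against HC11-FL cells are at or under the 12% and 16% of all genes tested, so they are no result about this list. Rrm2b, the reductase subunit known to be made outside S phase, averaged 6.82 in HC11-ΔSAP, 6.80 in HC11-mutB1 and 6.66 in HC11-FL cells (adjusted p = 0.31 for HC11-ΔSAP against HC11-FL). Tk2, the mitochondrial thymidine kinase, exceeded its HC11-FL level 1.96-fold in HC11-ΔSAP (adjusted p = 2.2e-05) and 1.79-fold in HC11-mutB1 cells (adjusted p = 5e-05), whereas cytosolic Tk1 lay below its HC11-FL level in HC11-ΔSAP and above it in HC11-mutB1 cells. Of 15 enzymes of de novo purine and pyrimidine synthesis, HC11-ΔSAP against HC11-FL cells gave 6 lower and 2 higher calls. These are 40% and 13.3%, where 12% of all genes tested were called lower and 16% higher. HC11-mutB1 against HC11-FL cells gave 5 lower and 3 higher calls. These are 33.3% and 20%, where 10.6% of all genes tested were called lower and 15.7% higher. Ctps1, a CTP synthase, measured 8.85, 8.88 and 8.81 in HC11-ΔSAP, 8.64, 8.52 and 8.68 in HC11-mutB1 and 9.52, 9.57 and 9.59 in HC11-FL cells. It was lower in both mutant strains, by 1.64-fold in HC11-ΔSAP (adjusted p = 4.4e-05) and by 1.93-fold in HC11-mutB1 cells (adjusted p = 9.2e-06), and Ppat and Gart of purine synthesis were also lower in both. These lists were chosen with earlier results of the data known, and their counts are given as a description.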

How the data were processed

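The deposited table holds log2 expression values that the authors made from Affymetrix Mouse Gene 1.0 ST scans by RMA with the affy package (R 2.10.0 in the submitters' processing notes). RMA corrects the background, quantile-normalizes the 9 arrays and summarises the probes of each of 34760 probesets by median polish. It forces all arrays to a common distribution, so a shift shared by most genes would not be seen. Of the probesets, 21640 carry 1 gene symbol, 1321 several and 11799 none in the platform annotation. Scanner files and scan dates were not used here, so no batch could be examined, and the precision is limited by 3 arrays per strain.

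Strains were compared with limma 3.58.1 in R 4.3.3 (lmFit and eBayes, 1 mean per strain, all 9 arrays, 6 residual and 1.93 prior degrees of freedom), with Benjamini-Hochberg adjustment over the whole table. Filters followed the study's methods: adjusted p of at most 0.01, fold of at least 2, mean log2 expression of at least 4. Where a gene had several probesets (4 members), the one with the highest mean was used. The 48 members, the lists and the tests were chosen with earlier results of these data known. Values per array are given for the members with the largest change in each functional group against HC11-FL in either comparison, for those that passed all 3 filters in any comparison, and for those called against the majority. Promoters (250 bases upstream) are from RefSeq, build GRCm38.p6. Alternatives were 10 other settings of the fit or filters and 9 fits that each left out 1 array.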

Additional observations from a re-analysis of the deposited data

How the results depend on the processing

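With 1 array left out, 25 to 27 members were lower (8 to 11 with the fold minimum) and 2 to 2 higher in HC11-ΔSAP against HC11-FL cells, 0 to 0 lower and 9 to 13 higher in HC11-mutB1 against HC11-FL cells, and 25 to 29 lower (12 to 14) in HC11-ΔSAP against HC11-mutB1 cells. With the threshold at 0.05, 5 members were higher in HC11-ΔSAP cells than in HC11-FL. The single member lower in HC11-mutB1 cells than in HC11-FL became 0 in the fit of the 2 compared strains, with the replicate number as a block and with each array centred on its median, 2 with limma's trend and robust options, 3 with array weights, 3 when p was adjusted over expressed probesets only and 4 with the threshold at 0.05. The 9 members higher in HC11-mutB1 against HC11-FL cells without HC11-FL replicate 1 or 3, where all arrays gave 14, were also a change beyond 1.5 times. All other counts of members stayed within 1.5 times their main value under these settings.

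Whether replicate numbers pair the arrays was not clear. The correlation of the deviations from the strain means between same-numbered arrays was -0.107 to 0.257. It was over 0.1 in every pair of replicate 1 arrays (0.119, 0.257 and 0.108) and in no pair of replicates 2 or 3. Between differently numbered arrays of different strains it was -0.261 to 0.23. With the replicate block, 25 members were lower and 2 higher in HC11-ΔSAP against HC11-FL cells, 10 higher in HC11-mutB1 against HC11-FL cells, and 29 lower in HC11-ΔSAP against HC11-mutB1 cells.

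Only members that were not called changed sign. With arrays centred, HC11-ΔSAP against HC11-FL gave 0.01 for Rfc3 and 0.01 for Pold4. Array weights gave 0.00 for Rfc3, 0.01 for Pold4 and, in HC11-mutB1 against HC11-FL, -0.03 for Lig1. For the members whose sign turned in some fit without 1 array, the log2 fold changes over these 9 fits ranged as follows. Between HC11-ΔSAP and HC11-FL cells they were Pcna -0.05 to 0.10, Rfc3 -0.02 to 0.02, Pold3 -0.05 to 0.10, Pold4 -0.07 to 0.08, Pole3 -0.00 to 0.03 and Rnaseh2c -0.02 to 0.06. Between HC11-mutB1 and HC11-FL cells they were Orc5 -0.02 to 0.09, Cdc6 -0.04 to 0.11, Gmnn -0.00 to 0.08, Pold1 -0.06 to 0.06, Pold4 -0.01 to 0.07, Fen1 -0.08 to 0.07, Lig1 -0.06 to 0.07 and Hells -0.19 to 0.01. Between HC11-ΔSAP and HC11-mutB1 cells they were Orc5 -0.02 to 0.06, Rfc1 -0.01 to 0.05 and Pold4 -0.10 to 0.05. The causes were not tested. Signal over background limits the value of Orc1 in HC11-ΔSAP cells, which lay under the expression minimum. Gmnn and Pole2 each averaged 4.28 in HC11-ΔSAP cells, below the array medians of 4.53 to 4.60. With a mean of at least 5 required, Orc1 and Gmnn, with 9-array means of 4.24 and 4.67, were no longer called. Then 26 members were lower in HC11-ΔSAP cells than in HC11-FL, and 28 lower than in HC11-mutB1.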
